A study of Homo sapiens with 12 samples.

Results

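Transcripts of 41 genes of nucleotide excision repair and of the synthesis and sealing of the repair gap were followed in HK-2 cells, an immortalised line of human proximal tubule origin. The 41 genes were taken by name from the 35238 rows of the deposited expression table, and all 41 were found. They are known genes of the repair of bulky DNA adducts, by its global and transcription-coupled branches. Which of them act on the adducts left by aristolochic acid I (AAI) was not tested. The 41 genes were read in 6 roles. These are global damage recognition (8 genes), transcription-coupled recognition (4), the core of the transcription factor TFIIH (7), damage verification and incision (7), gap filling (12) and ligation (3).

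Cells received either a scrambled control siRNA (SCR) or an siRNA against POLR2A (siB), each at 10 nM, and at the same time either 25 µM AAI or its solvent DMSO, and RNA was taken at 24 h. The groups were therefore SCR DMSO, SCR AAI, siB DMSO and siB AAI, with 3 libraries of poly(A) RNA each and 12 in all. Groups were read from the sample titles, because the treatment field of the labels gives DMSO for every library, those titled AAI included. Every group is the same cell line under transient transfection, and nothing says that the 3 libraries of a group came from separate cultures, so p-values measure the spread between these samples only.

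AAI is a plant nephrotoxin that forms bulky adducts on purines. Nucleotide excision repair removes bulky lesions by cutting out a short stretch of the damaged strand. In the global branch XPC and the DDB complex inspect the whole genome. In the transcription-coupled branch the lesion is met by a stalled RNA polymerase II, whose largest subunit RPB1 is the product of POLR2A, and CSB (ERCC6), CSA (ERCC8) and UVSSA are recruited to it. Both branches then use TFIIH to open the helix, XPA and RPA to hold it, and the nucleases XPF (ERCC4, with ERCC1) and XPG (ERCC5) to cut. PCNA, loaded by replication factor C, and DNA polymerases delta and epsilon fill the gap, and a ligase seals it.

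Levels are given as CPM, in which the reads of a gene are scaled to the total of its library, and CPM values compare libraries rather than genes of unequal length. In these bulk samples fewer cells of a type and less RNA per cell cannot be told apart. Differences are on the log2(CPM + 1) scale with the standard error (SE) from limma, and a gene is said to have risen or fallen only at a Benjamini-Hochberg adjusted p under 0.05 over all genes tested. The libraries held 15844015 to 42805294 reads, and the lowest value of any member, XPA in SCR DMSO replicate 2, rested on 95 reads. POLR2A was measured at 258, 288 and 306 CPM in SCR DMSO, 673, 719 and 729 in SCR AAI, 138, 143 and 139 in siB DMSO, and 266, 220 and 210 in siB AAI. The siB libraries thus lay below the SCR libraries in both treatments without overlap. The cell line was checked with marker genes. All 7 kidney epithelial markers, PAX8 among them, were at 2.76 CPM or more in every library, whereas of 8 markers of differentiated proximal tubule AQP1 and SLC22A6 stayed under 1 CPM throughout and GGT1 alone exceeded 90 CPM. Of 11 markers of other cell types, VWF, CDH5 and UMOD stayed under 1 CPM in all libraries. In siB cells AAI raised PTPRC, from a mean of 0.485 to 2.70 CPM, and PECAM1, from 1.13 to 4.65, and lowered COL1A1, from 30 to 12.1, and 5 of the 11 were higher and 2 lower without overlap. AQP2 was at 0 to 0.0427 CPM in siB DMSO and 0.911 to 1.62 in siB AAI. The summed level, most of it CD68 and COL1A1, was 111 to 150 CPM in SCR DMSO, 96.2 to 105 in SCR AAI, 98.9 to 119 in siB DMSO and 83.8 to 103 in siB AAI. The summed kidney epithelial markers were lower with AAI, at 1507 to 1627 CPM in siB AAI against 2162 to 2234 in siB DMSO and at 1651 to 1967 in SCR AAI against 2002 to 2531 in SCR DMSO. The part of these markers in the changes of the repair genes was not tested.

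SCR DMSO replicate 2 stood apart from the other libraries and touches every comparison with SCR DMSO. In that library 10 of the 41 genes differed by more than 1 on the log2 scale from the mean of replicates 1 and 3, among them RFC1 at 22.7 CPM against 169 and 119, and CUL4B at 25.0 against 212 and 114. The median size of the departure over the 41 genes was 0.46, against 0.09 to 0.42 for the other 11 libraries, each set against its own group. The direction was not uniform, since ERCC2 was 0.93 higher in this library. The heat map of all members by library shows this column, the AAI groups and the roles together. SCR values that it moves by more than 1.5 times, or across the threshold, are given also without this library for the members described.

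**Figure D1:**
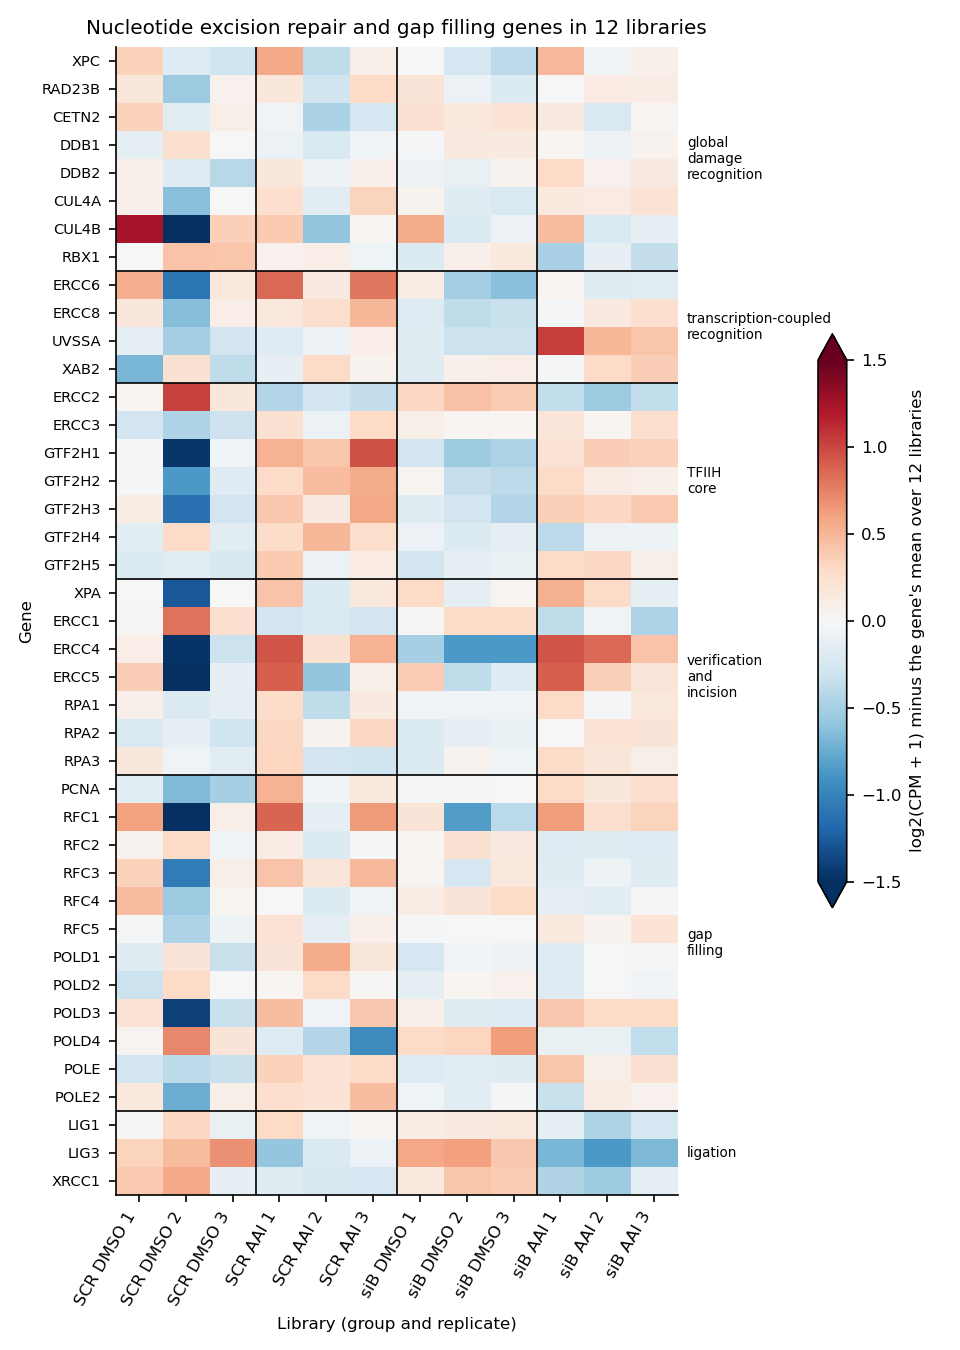
Each row is a gene, grouped by role, and each column a library. The colour is log2(CPM + 1) minus the mean of the gene over the 12 libraries, cut at 1.5 in both directions. SCR DMSO replicate 2 is the column with the deepest blue cells, ERCC4 is red in the AAI columns of both siRNAs, and LIG3 is blue in siB AAI.

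All 41 genes passed the filter on low values in every comparison. In siB cells AAI raised 11 of the 41 genes (26.8%) and lowered 8 (19.5%). Over all 14928 genes tested the shares at these main settings were 30.4% raised and 21.8% lowered, both slightly above those of the members. ERCC4 rose most, 3.09-fold by the group means, and LIG3 fell most, to 0.396 of its level in siB DMSO, and these alone also passed the 2-fold limit, set on the log2(CPM + 1) estimate, against a background of 13.9% of genes raised and 5.79% lowered at that limit. Groups did not overlap for 17 members that were higher (41.5%) and 9 that were lower (22.0%) with AAI, beside 34.2% and 26.6% of all genes. With median-ratio scaling, which moved the median change of all genes from 0.10 to -0.01, the count was 6 raised and 9 lowered. Over all 14928 genes that scaling gave 4016 raised and 4024 lowered. Relative to the median of all genes the median member differed by 0.06 and 0.07 under these scalings. Without siB DMSO replicate 3 the count was 5 raised and 4 lowered, beside 3518 and 2515 of the 14928 genes. Without siB DMSO replicate 2 it was 5 and 5, beside 3604 and 2590. Without siB AAI replicate 3 it was 7 and 5, beside 3884 and 2729. With all 4 groups in the fit it was 3 and 3, beside 3177 and 2103 of 15325 genes. In each of these fits the members were called less often than all genes. UVSSA, ERCC2, ERCC4, POLE, LIG3 and XRCC1 passed the adjusted p under all 15 alternative settings, the 2-fold limit aside, and none of the 19 genes changed sign under any of them.

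In SCR cells no member passed the threshold in limma. An unadjusted p under 0.05 was found for 11 of the 41, beside 3841 of all 14228 genes tested. At the adjusted threshold 8.98% of these 14228 genes rose and 3.36% fell. limma on the recovered reads (voom) also called 0 members. The estimates were not smaller than in siB cells, as their median size was 0.43 against 0.30 (0.42 and 0.46 over all genes), but their median SE was 0.27 against 0.13. POLE came closest, with a difference of 0.62 ± 0.18 (SE, n = 3 and 3) and an adjusted p of 0.0638 in limma, and LIG3 followed at -0.79 ± 0.25 with 0.0812. Of the members, 10 were higher with AAI in every library (24.4%, beside 22.2% of all genes) and 5 were lower in every library (12.2%, beside 11.5%). The median over the 41 genes was 0.33, beside 0.18 over all genes, and 30 of the 41 had a positive estimate. Without SCR DMSO replicate 2 these medians were 0.14 and 0.06. With median-ratio scaling they were 0.13 and -0.01, and the calls over all genes were 1088 raised and 801 lowered in place of 1277 and 478. Same-numbered SCR libraries deviated together, so they were also fitted as pairs. With this replicate block 4 members rose (GTF2H1, GTF2H3, ERCC4 and PCNA) and 2 fell (ERCC2 and LIG3), beside 14.7% and 6.4% of all genes. With all 4 groups in the fit, which pools their spread, 8 rose and 4 fell, beside 18.1% and 8.6% of all genes. Without SCR DMSO replicate 2 only LIG3 passed, at -0.80 ± 0.26 and an adjusted p of 0.0429. Of all 14228 genes, 1918 rose and 1238 fell in that fit.

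**Figure D2:**
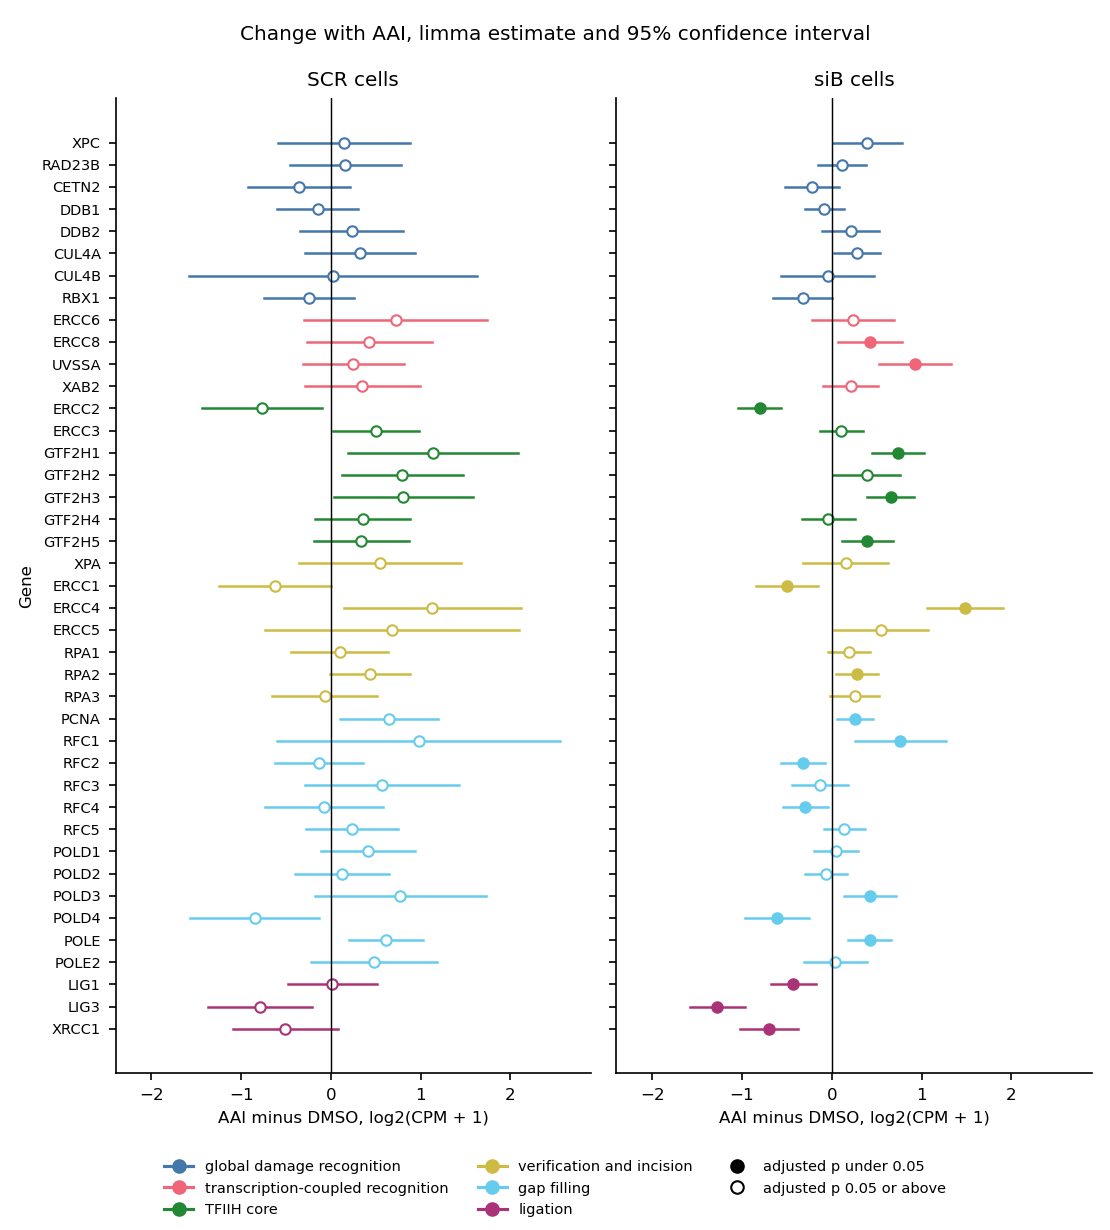
The change with AAI on the log2(CPM + 1) scale is drawn for each gene in SCR cells (left) and siB cells (right), with 95% confidence intervals from limma, n = 3 libraries a group. Filled points have an adjusted p under 0.05. There are 19 filled points in siB cells and none in SCR cells, where the intervals are wider, and the 3 ligation genes lie left of 0 in siB cells.

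None of the 8 genes of global damage recognition passed the threshold in any comparison at the main settings. In siB cells RBX1 fell with median-ratio scaling, and without siB DMSO replicate 1 RBX1 fell and XPC and CUL4A rose. With the replicate block in siB cells XPC rose and RBX1 fell. CETN2 fell in SCR cells with all 4 groups in the fit and SCR DMSO replicate 2 left out. XPC, the lesion sensor of this branch (chr3:14145147-14178621, minus strand, hg38), was measured at 42.4, 28.7 and 26.6 CPM in SCR DMSO, 49.7, 25.2 and 35.2 in SCR AAI, 33.3, 27.4 and 24.9 in siB DMSO, and 46.7, 32.2 and 34.9 in siB AAI. All 4 groups overlapped, and in siB cells it was the lowest AAI library alone that fell below the highest DMSO library. The AAI difference was 0.14 ± 0.32 in SCR cells (adjusted p 0.802), or 0.07 ± 0.31 without SCR DMSO replicate 2, and 0.39 ± 0.17 in siB cells (0.0799). DDB2, which binds distorted DNA and is a known p53 target (chr11:47214465-47239217, plus strand), was measured at 17.7, 14.6 and 12.4 CPM in SCR DMSO, 19.0, 15.9 and 17.7 in SCR AAI, 15.9, 15.6 and 17.6 in siB DMSO, and 20.8, 17.7 and 18.6 in siB AAI. The siB groups did not overlap but were separated by a margin smaller than their own spread, and the difference was 0.21 ± 0.14 (adjusted p 0.232, 95% interval -0.10 to 0.52). In SCR cells it was 0.23 ± 0.25, with an interval from -0.35 to 0.81. The other genes of the role, RAD23B and CETN2 (partners of XPC), DDB1, the ubiquitin ligase scaffolds CUL4A and CUL4B, and RBX1, had estimates between -0.36 and 0.33 in SCR cells and between -0.33 and 0.28 in siB cells. CUL4B was at 0.02 ± 0.69 in SCR cells and at -0.84 ± 0.32 without SCR DMSO replicate 2, with an adjusted p of 0.0803.

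Of the 4 genes of transcription-coupled recognition, ERCC8 and UVSSA rose with AAI in siB cells. UVSSA, which is brought to the stalled polymerase and recruits TFIIH (chr4:1345691-1395989, plus strand), was measured at 15.8, 12.1 and 14.3 CPM in SCR DMSO, 15.2, 16.4 and 18.9 in SCR AAI, 15.3, 13.8 and 13.9 in siB DMSO, and 37.1, 25.2 and 23.8 in siB AAI. The siB AAI libraries lay above all 9 others. The rise in siB cells was 0.93 ± 0.18 (adjusted p 0.00221), a 2-fold ratio of means, whereas the difference in SCR cells was 0.25 ± 0.24 (adjusted p 0.553), or 0.15 ± 0.24 without SCR DMSO replicate 2. ERCC8, encoding the CSA subunit of a ubiquitin ligase (chr5:60866454-60945073, minus strand), was measured at 10.2, 5.42 and 9.71 CPM in SCR DMSO, 10.1, 11 and 13.1 in SCR AAI, 7.69, 6.63 and 6.91 in siB DMSO, and 8.77, 9.92 and 10.8 in siB AAI. Its siB groups did not overlap, and its rise of 0.42 ± 0.16 was just past the threshold (adjusted p 0.0485). ERCC6, encoding the CSB translocase (chr10:49454168-49539538, minus strand), was measured at 29.6, 8.85 and 22.4 CPM in SCR DMSO, 36.8, 22.0 and 35.4 in SCR AAI, 21.7, 13.6 and 12.6 in siB DMSO, and 20.4, 17.5 and 17.7 in siB AAI. Every siB AAI library was below every SCR AAI library, while the DMSO and AAI groups overlapped within each siRNA. The AAI difference of ERCC6 was 0.72 ± 0.44 in SCR cells, and 0.24 ± 0.28 without SCR DMSO replicate 2. XAB2, an XPA-binding and splicing protein, had estimates of 0.35 ± 0.28 in SCR cells, 0.61 ± 0.22 there without SCR DMSO replicate 2 (adjusted p 0.0733), and 0.21 ± 0.14 in siB cells.

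The RefSeq promoter of UVSSA is printed because this gene alone passed the threshold between the siRNAs under AAI. It covers the 250 bases before the start (chr4:1346958-1347207, plus strand, GRCh38.p14), and capitals mark GC boxes, with the letters GGGCGG, and CCAAT boxes on either strand. The RefSeq start lies within the GENCODE span given above, which begins further upstream.
UVSSA promoter: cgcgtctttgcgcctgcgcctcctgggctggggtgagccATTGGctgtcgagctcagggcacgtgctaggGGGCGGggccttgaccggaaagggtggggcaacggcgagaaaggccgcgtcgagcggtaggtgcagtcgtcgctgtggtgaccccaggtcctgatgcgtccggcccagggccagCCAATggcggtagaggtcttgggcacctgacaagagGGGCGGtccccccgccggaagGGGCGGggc
The window holds 3 GC boxes and 2 CCAAT boxes and no TATA box. The nearest expressed gene upstream on the same strand, MAEA, ends 5543 bases before the annotated start of UVSSA and averaged 157 CPM over the 12 libraries. The counting was not stated to use strand or to separate read-through from a neighbour, and its part in the UVSSA reads was not tested.

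**Figure D3:**
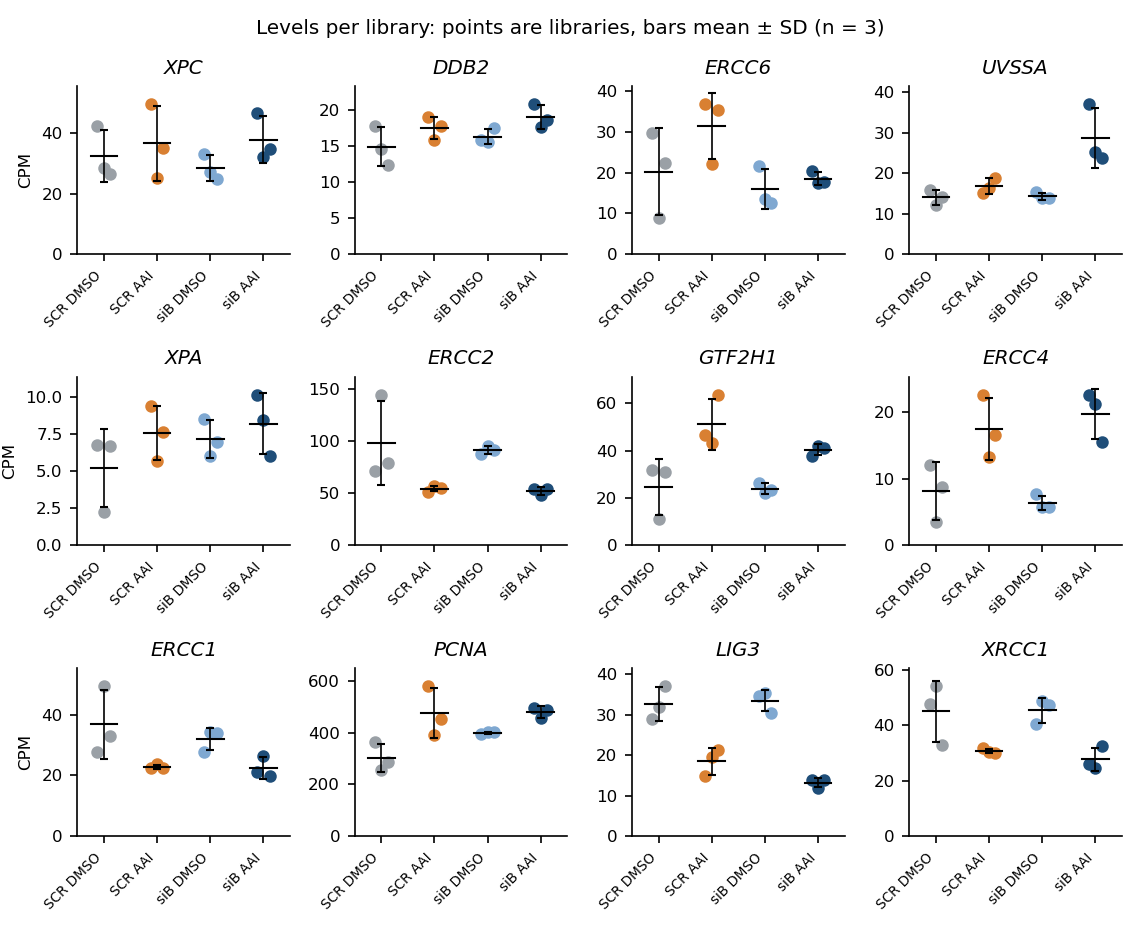
CPM is plotted per library for 12 genes in the 4 groups, with the mean and SD over 3 libraries and axes that start at 0. UVSSA is higher in siB AAI than in the other 3 groups, ERCC4 is higher and LIG3, ERCC2 and ERCC1 are lower with AAI under both siRNAs, and the groups of XPC overlap.

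Of the 7 TFIIH core genes, GTF2H1, GTF2H3 and GTF2H5 rose and ERCC2 fell with AAI in siB cells. ERCC2, the XPD helicase that opens the helix around the lesion (chr19:45349837-45370918, minus strand), was measured at 71.7, 145 and 79.4 CPM in SCR DMSO, 51.7, 57.4 and 54.8 in SCR AAI, 87.7, 96.0 and 91.8 in siB DMSO, and 54.2, 48.3 and 54.3 in siB AAI. All 6 AAI libraries lay below all 6 DMSO libraries. The change was -0.80 ± 0.11 in siB cells (adjusted p 2.6e-04). In SCR cells it was -0.77 ± 0.29 (adjusted p 0.135), and -0.46 ± 0.21 without SCR DMSO replicate 2. GTF2H1, the p62 subunit through which several repair factors bind TFIIH (chr11:18322295-18367045, plus strand), was measured at 32.0, 11.1 and 30.8 CPM in SCR DMSO, 46.7, 43.2 and 63.5 in SCR AAI, 26.4, 21.9 and 23.2 in siB DMSO, and 37.7, 42.0 and 41.2 in siB AAI. The AAI libraries were higher than the DMSO libraries under both siRNAs. The rise was 0.74 ± 0.13 in siB cells (adjusted p 0.00119), and the SCR difference was 1.14 ± 0.41 (0.119), or 0.67 ± 0.24 without SCR DMSO replicate 2. GTF2H3, the p34 subunit (chr12:123633739-123662604, plus strand), was measured at 48.1, 19.9 and 36.3 CPM in SCR DMSO, 59.4, 49.0 and 67.0 in SCR AAI, 39.2, 36.5 and 32.7 in siB DMSO, and 57.6, 55.5 and 59.0 in siB AAI. It rose by 0.66 ± 0.12 in siB cells (adjusted p 0.00137), again with no overlap between DMSO and AAI in either siRNA. GTF2H5, the small p8 subunit, rose by 0.40 ± 0.13. The translocase ERCC3 (XPB) was at 0.11 ± 0.11 in siB cells and 0.50 ± 0.21 in SCR cells, so of the helicase pair of TFIIH only ERCC2 passed the threshold. GTF2H2 has near-identical copies in the genome that can share its reads, and its estimates of 0.80 ± 0.29 and 0.39 ± 0.17 are uncertain for that reason.

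Of the 7 genes of verification and incision, ERCC4 and RPA2 rose and ERCC1 fell with AAI in siB cells. ERCC4, encoding the XPF nuclease that cuts on the 5′ side of the lesion (chr16:13920138-13952348, plus strand), was measured at 12.1, 3.43 and 8.79 CPM in SCR DMSO, 22.6, 13.3 and 16.6 in SCR AAI, 7.65, 5.77 and 5.74 in siB DMSO, and 22.6, 21.2 and 15.5 in siB AAI. Every AAI library was above every DMSO library. The rise in siB cells was 1.48 ± 0.19 (adjusted p 2.0e-04, 95% interval 1.06 to 1.91). The SCR difference was 1.13 ± 0.43 (adjusted p 0.137), 0.68 ± 0.29 without SCR DMSO replicate 2, and past the threshold with the replicate block (adjusted p 0.0249). ERCC1, the partner without which XPF is unstable (chr19:45407334-45478828, minus strand), was measured at 27.9, 49.4 and 33.0 CPM in SCR DMSO, 22.5, 23.6 and 22.4 in SCR AAI, 27.9, 34.1 and 33.8 in siB DMSO, and 21.0, 26.4 and 19.8 in siB AAI. It was lower with AAI in every library of both siRNAs, by -0.50 ± 0.15 in siB cells (adjusted p 0.0223) and by -0.62 ± 0.27 in SCR cells (adjusted p 0.184), or -0.40 ± 0.23 without SCR DMSO replicate 2. XPA, the verification factor that all sub-branches need (chr9:97674909-97697340, minus strand), was measured at 6.79, 2.22 and 6.69 CPM in SCR DMSO, 9.39, 5.71 and 7.63 in SCR AAI, 8.55, 6.04 and 6.97 in siB DMSO, and 10.2, 8.45 and 6.06 in siB AAI. Its groups overlapped, with 0.16 ± 0.21 in siB cells (adjusted p 0.551) and 0.55 ± 0.39 in SCR cells (0.413), or 0.12 ± 0.27 without SCR DMSO replicate 2. The single-strand binding protein RPA2 rose by 0.28 ± 0.10 in siB cells, while RPA1 and RPA3 were at 0.19 ± 0.10 and 0.26 ± 0.12. ERCC5, the XPG nuclease of the 3′ side, was at 0.54 ± 0.23 in siB cells with an adjusted p of 0.0759, and its position lies within the read-through gene BIVM-ERCC5.

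The promoters of ERCC4 and LIG3 are printed because these genes had the largest rise and the largest fall with AAI in siB cells. Both cover 250 bases before the start in GRCh38.p14 on the plus strand, at chr16:13919904-13920153 for ERCC4 and chr17:34980262-34980511 for LIG3. Capitals mark the same motifs as above.
ERCC4 promoter: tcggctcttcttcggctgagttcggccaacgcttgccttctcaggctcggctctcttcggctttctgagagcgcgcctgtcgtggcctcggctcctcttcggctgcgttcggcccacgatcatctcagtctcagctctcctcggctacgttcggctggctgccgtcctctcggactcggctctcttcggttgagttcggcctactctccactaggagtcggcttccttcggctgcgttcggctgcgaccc
LIG3 promoter: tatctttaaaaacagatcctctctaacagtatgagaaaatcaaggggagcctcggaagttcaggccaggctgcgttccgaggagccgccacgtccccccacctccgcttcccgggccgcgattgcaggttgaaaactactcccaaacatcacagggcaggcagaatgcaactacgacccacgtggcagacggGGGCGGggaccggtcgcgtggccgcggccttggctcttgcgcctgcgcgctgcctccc
The ERCC4 window holds none of the motifs searched, and the LIG3 window holds 1 GC box. The search covered both strands for the GC box GGGCGG and the CCAAT box, for TATAAA as TATA box, for the cyclic AMP response element TGACGTCA, and for the E2F site in the forms TTTGGCGC or TTTCCCGC or TTTGCCGC or TTTCGCGC, and matches of these motifs were counted separately where they overlapped. Promoters were found for 38 members, 53 windows in all, and not for RPA2, RPA3 and POLD3. A GC box was in 36 of the 53 windows (67.9%), beside 62.4% of 15499 windows of genes averaging at least 1 CPM and 42.6% of all 35116 windows searched. Both backgrounds leave out the windows of 1 chromosome, on which no member lies. An E2F form was in 6 windows (11.3%, those of CUL4A, LIG1, PCNA, POLE, RFC3 and XPC), beside 3.9% and 2.79%. A CCAAT box was in 21 (39.6%, beside 32.5% and 32.0%), TGACGTCA in 2 (3.77%, beside 2.35% and 1.65%) and TATAAA in 0, beside 6.04% and 10.7%. A match is a description of these letters and not evidence of binding.

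Of the 12 gap filling genes, PCNA, RFC1, POLD3 and POLE rose and RFC2, RFC4 and POLD4 fell with AAI in siB cells. PCNA, the sliding clamp (chr20:5114953-5126626, minus strand), was measured at 362, 256 and 286 CPM in SCR DMSO, 580, 392 and 453 in SCR AAI, 395, 401 and 402 in siB DMSO, and 496, 455 and 487 in siB AAI. The AAI libraries were above the DMSO libraries under both siRNAs, and the siB DMSO libraries were above the SCR DMSO libraries. The rise was 0.26 ± 0.09 in siB cells (adjusted p 0.0324) and the SCR difference was 0.65 ± 0.24 (0.122), past the threshold with the replicate block (0.0453). Between the siRNAs in DMSO, PCNA differed by 0.42 ± 0.16 with an unadjusted p of 0.0394. RFC1, the large subunit of the clamp loader (chr4:39287456-39366375, minus strand), was measured at 169, 22.7 and 119 CPM in SCR DMSO, 204, 101 and 174 in SCR AAI, 127, 61.6 and 83.9 in siB DMSO, and 172, 134 and 141 in siB AAI. It rose by 0.76 ± 0.23 in siB cells (adjusted p 0.0183), and its SCR difference was 0.98 ± 0.68, or 0.11 ± 0.30 without SCR DMSO replicate 2. The small subunits differed from it, as RFC2 was at -0.32 ± 0.11, RFC4 at -0.30 ± 0.11, RFC3 at -0.13 ± 0.14 and RFC5 at 0.14 ± 0.10 in siB cells. POLD4, the smallest subunit of polymerase delta, whose protein is known to be degraded after DNA damage (chr11:67350772-67356972, minus strand), was measured at 16.1, 26.2 and 17.9 CPM in SCR DMSO, 13.5, 11.2 and 7.56 in SCR AAI, 19.2, 19.6 and 24.5 in siB DMSO, and 14.3, 14.3 and 11.8 in siB AAI. All AAI libraries were below all DMSO libraries. The change was -0.61 ± 0.16 in siB cells (adjusted p 0.0098) and -0.85 ± 0.31 in SCR cells (0.127). POLD3, another accessory subunit, rose by 0.43 ± 0.13 in siB cells, while the catalytic POLD1 was at 0.05 ± 0.11 and POLD2 at -0.07 ± 0.11. POLE, the catalytic subunit of polymerase epsilon, rose by 0.42 ± 0.11 in siB cells, and its partner POLE2 was at 0.04 ± 0.16.

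All 3 ligation genes fell with AAI in siB cells, and the fall of LIG3 was the deepest of the 41. LIG3, the ligase that works with XRCC1 (chr17:34980512-35009743, plus strand), was measured at 28.9, 31.8 and 37.0 CPM in SCR DMSO, 14.9, 19.4 and 21.3 in SCR AAI, 34.5, 35.2 and 30.4 in siB DMSO, and 13.8, 12 and 13.9 in siB AAI. The siB AAI libraries were the lowest of all, and SCR AAI lay between them and the DMSO libraries. The change was -1.27 ± 0.14 in siB cells (adjusted p 7.3e-05, 95% interval -1.58 to -0.97) and -0.79 ± 0.25 in SCR cells (0.0812), past the threshold with the replicate block (0.0362). XRCC1, the scaffold that holds LIG3 (chr19:43543311-43580473, minus strand), was measured at 47.8, 54.2 and 32.9 CPM in SCR DMSO, 31.7, 30.4 and 30.1 in SCR AAI, 40.3, 48.6 and 47.3 in siB DMSO, and 26.2, 24.6 and 32.4 in siB AAI. It was lower with AAI in every library, by -0.70 ± 0.14 in siB cells (adjusted p 0.00306) and -0.51 ± 0.25 in SCR cells (0.244). LIG1, the replicative ligase, had a mean of 103 ± 1.42 CPM (SD, n = 3) in siB DMSO and 76.7 ± 8.42 in siB AAI, a fall of -0.43 ± 0.11, whereas in SCR cells its means were 99.4 ± 15.7 and 100.4 ± 13.8. LIG1 was the only gene of the 19 changed in siB cells whose SCR estimate had the other sign, at 0.02 ± 0.22, or 0.14 ± 0.21 without SCR DMSO replicate 2. LIG3 and XRCC1 overlap other protein-coding genes, as do ERCC1, ERCC2, GTF2H3, RFC4 and POLD4 of the 19 changed genes. Of all 41 members 16 do, XPC and ERCC5 among them, and without strand such reads cannot be told apart.

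Under AAI, siB and SCR cells differed past the threshold in 1 of the 41 genes, UVSSA, which was 1.70-fold higher in siB cells, and in 0 that were lower. Over all 14946 genes tested 5.49% were higher and 3.79% lower. The UVSSA difference was 0.71 ± 0.21 with an adjusted p of 0.049, at the edge of the threshold. It did not pass in voom, in the fit of all 4 groups, under the filters with no minimum or a mean of at least 5 CPM, or when any 1 of the 6 libraries was left out, and no estimate changed sign there. Leaving out SCR AAI replicate 1 called ERCC5 instead, and leaving out SCR AAI replicate 2 called ERCC6 and RFC3 as lower in siB cells. Over the 41 genes the median difference was -0.01, with 20 estimates positive and 21 negative, beside a median of 0.00 over all genes. Groups did not overlap for 10 members that were lower in siB AAI (24.4%, beside 15.8% of all genes) and 1 that was higher (2.44%, beside 15.1%). The 10 were RBX1, ERCC6, GTF2H1, GTF2H4, RFC3, POLD1, POLD2, POLE2, LIG1 and LIG3. Of these ERCC6 differed by -0.70 ± 0.21 (adjusted p 0.0595), GTF2H4 by -0.53 ± 0.17 (0.0721) and RFC3 by -0.51 ± 0.16 (0.0702). Same-numbered SCR AAI and siB AAI libraries also deviated together. With the replicate block UVSSA was higher (adjusted p 1.4e-04) and 6 members were lower, ERCC6 (1.7e-04), GTF2H4 (0.0041), RFC3 (0.00539), LIG3 (0.03), POLD1 (0.0352) and LIG1 (0.0372), beside 15.2% of all genes higher and 13.8% lower. In that fit limma gave every gene the variance of the trend, so its p-values do not carry the spread of the single gene.

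In DMSO no member differed between siB and SCR cells in limma, at a background of 0% of the 13606 genes tested. An unadjusted p under 0.05 was found for 2, ERCC3 at 0.40 ± 0.14 and PCNA at 0.42 ± 0.16, beside 644 of the 13606 genes. Without SCR DMSO replicate 2 they were at 0.34 ± 0.11 and 0.31 ± 0.13, and again no member passed. In that fit ERCC3, XAB2, ERCC4, ERCC6, ERCC8 and GTF2H1 had an unadjusted p under 0.05, beside 2754 of the 13606 genes. POLR2A itself was at -1.01 ± 0.13 with an adjusted p of 0.505 in this comparison, and 0 members were called in voom. The AAI responses in siB and SCR cells were also compared with each other. The difference between them passed for 0 of the 41 genes, beside 1.61% of 15325, and voom likewise called 0. UVSSA alone had an unadjusted p under 0.05 with all libraries, beside 2032 of the 15325 genes. Its response was 0.68 ± 0.28 larger in siB cells (95% interval 0.07 to 1.29, adjusted p 0.311), or 0.77 ± 0.27 without SCR DMSO replicate 2 (adjusted p 0.102). In the fit without that library ERCC4, LIG1 (-0.57 ± 0.20), GTF2H4 (-0.54 ± 0.21) and POLD1 (-0.51 ± 0.20) also had an unadjusted p under 0.05. Of all genes 3854 did so there, and no member passed the threshold. The interval of ERCC4 ran from -0.72 to 1.43, or 0.08 to 1.53 without that library (adjusted p 0.157), and that of LIG3 from -1.03 to 0.06, and both were wide enough to hold a 2-fold difference in response. The estimates of the 2 AAI comparisons, which share no library, had the same sign in 35 of 41 members. The share over all genes is not given here, so this count is a description of the members only.

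Partners in a complex could move in opposite directions, as ERCC4 and ERCC1 did, and this was followed as the ratio of the CPM of partner genes within each library. The pairs were chosen after the values were seen, and the ratios are given as a description. ERCC4 over ERCC1 was 0.434, 0.0695 and 0.266 in SCR DMSO, 1.005, 0.564 and 0.743 in SCR AAI, 0.275, 0.169 and 0.170 in siB DMSO, and 1.08, 0.801 and 0.786 in siB AAI. The ratio was higher in all 6 AAI libraries than in any DMSO library, by 1.90 on the log2 scale in SCR cells and 2.14 in siB cells. Without SCR DMSO replicate 2 the SCR difference was 1.14. ERCC2 over ERCC3, the helicases of TFIIH, was 1.09, 2.501 and 1.23 in SCR DMSO, 0.551, 0.763 and 0.553 in SCR AAI, 1.03, 1.17 and 1.13 in siB DMSO, and 0.596, 0.593 and 0.567 in siB AAI. It was lower in all AAI libraries, by log2 differences of -1.29 in SCR cells, or -0.92 without that library, and -0.92 in siB cells. LIG3 over XRCC1 was lower in siB AAI than in siB DMSO with no overlap, by a log2 difference of -0.62, and overlapped in SCR cells, at -0.30 with and -0.47 without that library. POLD3 over POLD4 was higher with AAI under both siRNAs, by 1.72 in SCR cells, or 1.04 without that library, and by 1.09 in siB cells. DDB2 over DDB1 overlapped in SCR cells, at 0.39, and was higher with AAI in siB cells without overlap, by 0.30. RPA2 over RPA1 overlapped under both siRNAs, at 0.34 in SCR cells and 0.09 in siB cells. POLE2 over POLE also overlapped under both, at -0.12 in SCR cells, or -0.40 without that library, and -0.39 in siB cells. XPC over RAD23B overlapped in SCR cells, with means of -2.81 ± 0.38 and -2.83 ± 0.33 (log2, SD, n = 3) in SCR DMSO and SCR AAI, and was higher with AAI in siB cells with a narrow gap, at -3.07 to -3.04 in siB DMSO and -3.02 to -2.36 in siB AAI.

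**Figure D4:**
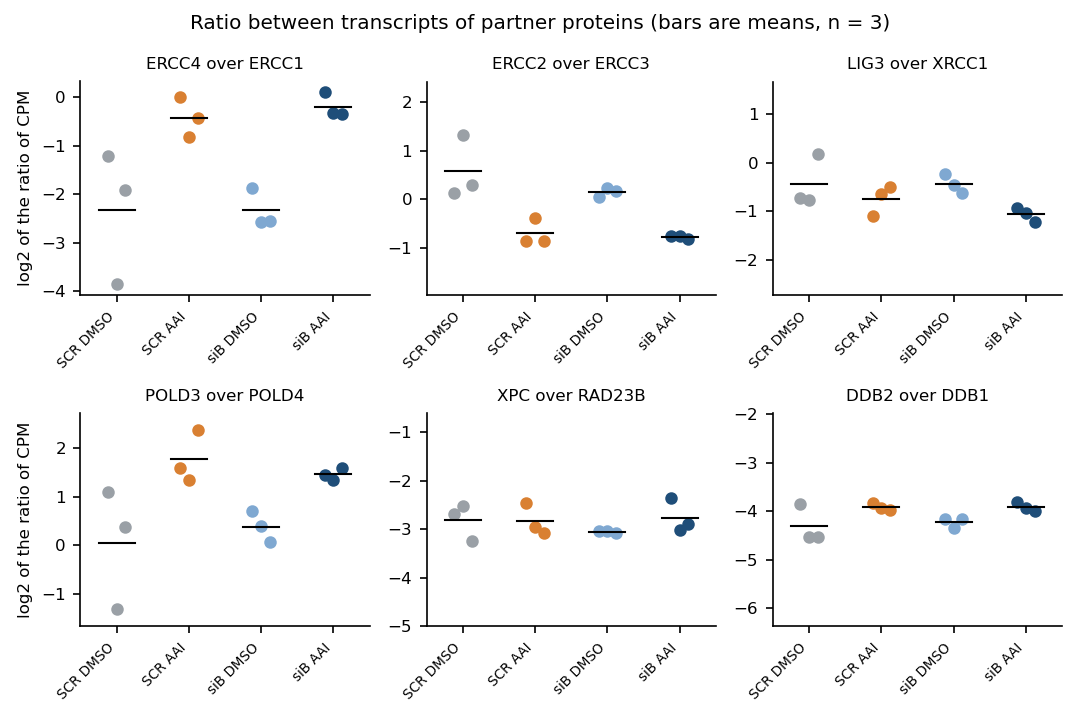
The log2 ratio of CPM between the genes of 6 protein pairs is plotted per library in the 4 groups, with the mean of 3 libraries as a bar. All panels span the same number of log2 units but are centred on their own values. ERCC4 over ERCC1 and POLD3 over POLD4 are higher and ERCC2 over ERCC3 lower in both AAI groups, while XPC over RAD23B overlaps between DMSO and AAI in SCR cells.

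Between genes, levels were compared per kilobase of annotated exons in SCR DMSO. PCNA was the most abundant at 215 ± 39.2 CPM per kb (SD, n = 3). RAD23B at 49.7 ± 12.4, RPA2 at 46.9 ± 2.96 and RPA1 at 45.9 ± 4.91 followed, and these 3 did not differ beyond their spread. Without SCR DMSO replicate 2, RAD23B ranged from 54.6 to 58.9, above RPA1 at 44.3 to 51.5 and RPA2 at 44.2 to 46.3. The lowest were ERCC8 at 0.32 ± 0.10, ERCC4 at 0.51 ± 0.28, UVSSA at 0.83 ± 0.11 and ERCC6 at 0.88 ± 0.46. Among these 4, neighbours in the order lay within their spread of each other, except ERCC4 and UVSSA, whose means differed by more than either SD. Without SCR DMSO replicate 2 the order was the same and the ranges did not overlap. They were 0.37 to 0.38 for ERCC8, 0.55 to 0.76 for ERCC4, 0.84 to 0.93 for UVSSA and 0.97 to 1.28 for ERCC6. Of the 4 transcription-coupled recognition genes 3 were thus among the 4 lowest of the 41, and XAB2 was at 17 ± 5.78. The exon length counts every annotated transcript, which lowers the value of genes with long alternative ends such as ERCC8.

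The members spanned 3.76 to 175 kb of the genome, with a median of 33.5 kb. In SCR DMSO replicate 2 longer members were lower relative to replicates 1 and 3, with a Spearman rho of -0.43 over the 41 genes and -0.44 over 14095 genes. Other libraries, each against its own group, had a rho with span of like size, from -0.39 to 0.44 over the 41 genes, so this relation alone did not set the library apart. RFC1 and CUL4B were the lowest, both at -2.59, and ERCC2 the highest. The points share this library and its depth. The change with AAI in SCR cells had a rho of 0.25 with span over the members, and -0.01 without this library. In siB cells, where the comparison does not use it, rho was 0.29, and members of at least 30 kb had a median change of 0.26 with 19 of 25 positive, against -0.05 with 7 of 16 positive in shorter members. Over all genes tested the medians were 0.11 and 0.05 and rho was -0.00.

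**Figure D5:**
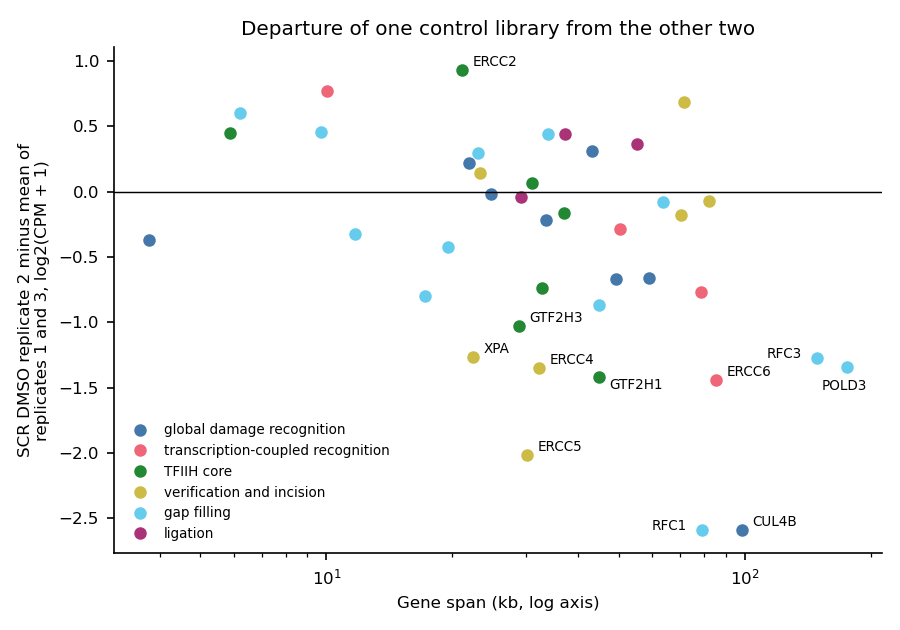
Each point is a gene, coloured by role. The horizontal axis is gene span in kb (log axis) and the vertical axis the log2(CPM + 1) of SCR DMSO replicate 2 minus the mean of replicates 1 and 3, with labels for genes past 0.9. Most genes of at least 30 kb lie below 0, down to RFC1 and CUL4B at -2.59, and ERCC2 is the highest at 0.93.

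Genes outside the 41 were followed in 3 lists of known members of neighbouring pathways. Of 17 other excision repair genes AAI raised 6 (35.3%) and lowered 3 (17.6%) in siB cells, beside 30.4% and 21.8% of all genes, with a median of 0.03. POLK, a translesion polymerase, rose by 0.96 ± 0.20, USP45 by 0.90 ± 0.21 and STK19 by 0.58 ± 0.17, whereas CDK7, the kinase of TFIIH, fell by -0.56 ± 0.14 and POLE4 by -0.39 ± 0.13. In SCR cells INO80 (1.09 ± 0.27) and POLE3 (1.02 ± 0.20) rose and none fell, and without SCR DMSO replicate 2 4 of the 17 rose and none fell. Between the siRNAs under AAI, CDK7 and INO80 were lower in siB cells, by -0.70 ± 0.19 and -0.68 ± 0.19. They make up 11.8% of the 17, beside 3.79% of all genes. Of 34 other replication genes AAI raised 13 (38.2%) and lowered 5 (14.7%) in siB cells, with a median of 0.05. In SCR cells it raised 4 (11.8%) and lowered 1 (2.94%), beside 8.98% and 3.36% of all genes, with a median of 0.34. Without SCR DMSO replicate 2 the median was 0.20, and 6 rose and 2 fell, beside 1918 and 1238 of all 14228 genes. CLSPN (1.27 ± 0.25), ORC6 (1.18 ± 0.13) and MCM10 (1.04 ± 0.14) rose and RRM2 (-1.46 ± 0.11), POLA2 (-0.90 ± 0.13) and TK1 (-0.72 ± 0.10) fell in siB cells. In SCR cells E2F1, ORC6 and ORC1 had the largest rises (1.23, 1.15 and 0.95) and POLA2 fell by -0.89. Between the siRNAs under AAI 4 of the 34 (11.8%) were lower in siB cells and none higher, led by RRM2 (-1.21), CDT1 (-0.79) and PRIM1 (-0.73). Over all genes 3.79% were lower and 5.49% higher in that comparison. RRM2, the small subunit of ribonucleotide reductase, was the only gene of the 3 lists whose response differed between the siRNAs with all libraries in the fit, by -1.40 ± 0.24 (adjusted p 0.0163). It supplies deoxynucleotides for repair synthesis as well as for replication. The p53 pathway was followed through 24 known targets, of which 23 were tested. AAI raised 2 and lowered 8 of them in siB cells, with a median of -0.00, beside 30.4% raised and 21.8% lowered of all genes. In SCR cells limma called 0 of them, with a median of 0.38 beside 0.18 over all genes. Without SCR DMSO replicate 2 it called 4 raised and 3 lowered, with a median of 0.32. Over all 14228 genes that setting called 1918 raised and 1238 lowered, with a median of 0.06. The 2 raised in siB cells were BTG2 (0.55 ± 0.19) and GADD45A (0.51 ± 0.13). In the same siB comparison TP53I3 (-1.47 ± 0.22), TP53INP1 (-1.34 ± 0.24) and the apoptosis gene BBC3 (-1.27 ± 0.23) fell furthest. Between the siRNAs under AAI, TNFRSF10B was 0.77 ± 0.16 higher in siB cells, and PHLDA3 and TRIAP1 were lower, by -1.05 ± 0.20 and -0.81 ± 0.17. No other target passed there, beside 5.49% of all genes higher and 3.79% lower.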

How the data were processed

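Transfected HK-2 cells were profiled by poly(A) RNA sequencing in 12 libraries, and the authors aligned paired-end reads to hg38 and counted them per gene. The aligner and the use of strand are not given in the sources used here. The authors deposited log10(CPM + 1) values for 35238 genes, of which 28 names had turned into dates. CPM were recovered from these, and every value checked came out as a whole number of reads within a tolerance of 0.05. The highest counts were not included in that check. For each comparison limma 3.58.1 (R 4.3.3, trended variance) was run on log2(CPM + 1) of the libraries compared, keeping genes with at least 1 CPM in at least 3 libraries, with Benjamini-Hochberg adjustment over all genes tested. Whether AAI responses differed was tested as the interaction over all 4 groups. limma was tested on simulated data before use. Same-numbered libraries deviated together over 15325 genes in SCR AAI and SCR DMSO (correlations 0.42, 0.47 and 0.34) and in siB AAI and SCR AAI (0.61, 0.32 and 0.29), so these numbers were taken as pairs, from the data and not from the labels. The 41 genes and all lists were chosen with earlier results of these data known. Values per library were given for XPC, DDB2, ERCC6, ERCC8, UVSSA, XPA and PCNA and for up to 5 members in each direction with the largest change past the threshold in a comparison, and up to 3 genes in each direction were named from other lists. Partner ratios were added after the values were seen.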

Additional observations from a re-analysis of the deposited data

How the results depend on the processing

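The lowest member value rested on 95 reads. With 3 libraries in each group, the median SE over the members was 0.27 for the AAI difference in SCR cells and 0.13 in siB cells. What set the precision was not tested. The 41 genes gave 0 reversed directions among called values. In SCR cells, where 0 members rose and 0 fell, 1 rose with CPM computed without AC010970.2 (0.189 to 10.6% of the reads), 8 rose and 4 fell with all 4 groups in the fit, 9 rose and 4 fell when SCR DMSO replicate 2 was also left out of that fit (an alternative chosen after seeing the data), and with the replicate block 4 rose and 2 fell. Leaving out 1 library gave 0 to 1 fallen. In siB cells, with 11 risen and 8 fallen, the 2-fold limit left 1 and 1, median-ratio scaling 6 risen, and all 4 groups in the fit 3 and 3. Leaving out 1 library gave 5 to 15 risen and 4 to 9 fallen. Between the siRNAs under AAI, with 1 higher and 0 lower, 0 were higher at the 2-fold limit, with no filter, with a mean of at least 5 CPM, with all 4 groups in the fit and in voom. There 2 were lower with median-ratio scaling, 2 without AC010970.2, 6 with the replicate block, and 2 with all 4 groups and SCR DMSO replicate 2 left out. Leaving out 1 library gave 0 to 1 higher and 0 to 2 lower. The cause of these shifts was not tested. In siB cells the numbers did not pair the libraries (correlations 0.21, 0.026 and 0.19) and the block gave 13 risen and 9 fallen. In DMSO they did not either (0.73, 0.59 and -0.19), and this comparison and the difference between AAI responses gave 0 members under every alternative run.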
